A study of Rattus norvegicus with 25 samples.

Results

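The rat genes whose symbols begin with Kcn encode the pore-forming and auxiliary subunits of potassium channels, together with Kcnrg, a regulator of Kv assembly that is grouped with them by its symbol. They were taken here from a bulk RNA-seq count table of rat striatum as every Kcn gene with a summed count of 100 or more over all 25 libraries, which gave 79 genes of the 92 Kcn symbols and of the 28909 genes in the table. The summed count alone chose them, so it is not a result, while the differences between treatments played no part in the choice. Just inside the threshold were Kcnh8 with 100 counts and Kcnrg with 109, and just outside were Kcna7 with 89 and Kcnv2 with 88. Of the 79 genes, 76 passed the filter on low counts and were tested, and Kcnh8, Kcnrg and Kcnj15 were not.

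The table comes from a study of trapidil given together with levodopa, in female Sprague Dawley rats with a lesion made by the toxin 6-OHDA, which destroys dopamine neurons and serves as a model of Parkinson's disease. The animals were randomised to 3 arms and dosed for 14 days. The arms were levodopa alone at 6 mg/kg once a day (n = 5), that levodopa dose plus 7.5 mg/kg trapidil 2 times a day (n = 10), and that levodopa dose plus 15 mg/kg trapidil on the same schedule (n = 10). The series title also names benserazide, a blocker of levodopa breakdown outside the brain, beside levodopa. Striatum from the lesioned side was taken on day 15, at 1 hour relative to dosing, and polyA RNA was sequenced. Every animal therefore carried the lesion and received levodopa, and unlesioned or levodopa-free striatum was not analysed here. Each library is labelled as 1 sample, and no label names its litter, batch or day of collection.

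Potassium channels let potassium ions leave or enter a cell and so set its resting potential, the shape of its action potentials and its firing rate. Voltage-gated (Kv) channels are tetramers of pore-forming subunits that open on depolarisation, calcium-activated channels open when intracellular calcium is raised, inwardly rectifying (Kir) channels pass current best near the resting potential, and 2-pore-domain (K2P) channels carry a background leak. In the spiny projection neurons that make up most of the striatum, Kir channels hold the cell silent, A-type Kv4 and Kv1 currents delay its first spike, and Kv7 currents, which dopamine and acetylcholine receptors modulate, restrain firing.

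The genes Kcng4, Kcna5, Kcnn3 and Kcne5 are described in most detail because they had the smallest adjusted p-values among these subunits at the higher trapidil dose. Kcng4 encodes the silent subunit Kv6.4, which forms no channel alone and changes the gating of the Kv channels it joins. Kcna5 encodes Kv1.5, a pore-forming delayed rectifier. Kcnn3 encodes SK3, a small-conductance calcium-activated channel known for regulating pacemaker firing in dopamine neurons. Kcne5 encodes a single-span auxiliary subunit that binds Kv channels and changes their gating. Their RefSeq promoters (GRCr8, 250 bases before to 50 after the start site, 5′ to 3′ on the gene's strand) are shown because these are the genes the results turn on, and the capital marks the start-site base:
Kcng4 chr19:64597839-64598138 (- strand): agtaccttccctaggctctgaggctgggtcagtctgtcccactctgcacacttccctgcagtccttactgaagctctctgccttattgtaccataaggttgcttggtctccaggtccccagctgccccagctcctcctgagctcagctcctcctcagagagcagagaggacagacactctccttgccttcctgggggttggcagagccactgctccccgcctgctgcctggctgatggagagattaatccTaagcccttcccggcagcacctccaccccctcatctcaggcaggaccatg
Kcna5 chr4:161043760-161044059 (- strand): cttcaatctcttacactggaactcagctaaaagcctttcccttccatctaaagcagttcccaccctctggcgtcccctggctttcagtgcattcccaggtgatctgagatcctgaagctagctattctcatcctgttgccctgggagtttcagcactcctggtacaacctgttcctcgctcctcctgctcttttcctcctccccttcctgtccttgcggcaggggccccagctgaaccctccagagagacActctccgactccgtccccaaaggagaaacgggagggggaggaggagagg
Kcnn3 chr2:177234090-177234389 (+ strand): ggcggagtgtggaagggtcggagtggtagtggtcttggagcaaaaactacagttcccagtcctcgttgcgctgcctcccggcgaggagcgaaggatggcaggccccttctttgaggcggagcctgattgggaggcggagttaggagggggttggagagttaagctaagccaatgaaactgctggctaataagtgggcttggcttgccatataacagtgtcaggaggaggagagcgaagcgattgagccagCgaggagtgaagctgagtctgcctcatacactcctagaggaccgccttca
Kcne5 chrX:110727800-110728099 (- strand): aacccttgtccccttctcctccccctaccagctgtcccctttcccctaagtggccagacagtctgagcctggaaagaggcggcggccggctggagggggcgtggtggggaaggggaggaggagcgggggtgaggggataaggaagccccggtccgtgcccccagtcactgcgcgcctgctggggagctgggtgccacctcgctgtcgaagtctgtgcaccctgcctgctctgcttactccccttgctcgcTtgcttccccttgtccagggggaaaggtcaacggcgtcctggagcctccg

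These 4 promoters differ in base composition, with GC contents of 59.3% for Kcng4, 56.3% for Kcna5, 57.0% for Kcnn3 and 67.0% for Kcne5. RefSeq entries of this kind were found for 53 of the 79 genes, with 58 promoters in all, whose median GC content was 63.7%, against 60.7% for the genes tested. Exact matches were searched on both strands for the cyclic-AMP response element TGACGTCA, the AP-1 site TGANTCA, the E-box CACGTG and the GC box GGGCGG, none of which contains another. None of the 4 printed windows holds any of these letters. Among the 58 promoters the response element was in 0%, against 2.92% of the promoters of tested genes, and the AP-1 site was in 1.72%, against 4.89%. The E-box was in 5.17% of them, against 8.86%, and the GC box in 55.2%, against 60.0%. Such matches describe letters in these windows only.

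The libraries held 16535828 to 19274429 gene counts under levodopa alone, 10838513 to 18794463 with trapidil at 7.5 mg/kg and 13862132 to 20532290 at 15 mg/kg. All 8 spiny projection neuron markers were measured in every arm, with summed levels of 8675 to 15347 CPM (counts scaled to library size with TMM factors). In tissue RNA, fewer cells of a type and less RNA per cell cannot be told apart. Replicate 2 of the levodopa arm stood apart, with the lowest spiny neuron sum (8675 CPM, against 11588 to 15347 in the other levodopa animals) and an oligodendrocyte sum of 18518 CPM, against 10106 to 12974. Replicate 1 of the 7.5 mg/kg arm stood apart too, with a cortical neuron sum of 55.3 CPM, against an arm median of 3.25, an interneuron sum of 222 CPM, against a median of 311, and an oligodendrocyte sum of 15354 CPM, against a median of 9433. It also held the fewest counts of the 25 libraries, 10838513. Replicate 6 of that arm (33.6 CPM) and levodopa replicate 5 (42.7 CPM) had high cortical sums as well. Oligodendrocyte markers differed between arms, with sums of 6117 to 13058 CPM at 15 mg/kg, against 10106 to 18518 CPM under levodopa alone, and 4 of the 8 fell there by the test used below. Endothelial sums were 144 to 190 CPM at 15 mg/kg, against 192 to 374 CPM under levodopa alone, and 1 of 4 tested markers fell. A single marker also fell in the oligodendrocyte precursor list, the choroid plexus list, and the thalamic, pallidal and hypothalamic list. What part these marker differences have in the potassium channel values was not tested.

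No potassium channel subunit gene passed the test in any comparison of arms. The 79 genes together took 0.380% ± 0.0577 of all counts under levodopa alone (SD, n = 5), 0.392% ± 0.0173 at 7.5 mg/kg and 0.395% ± 0.0129 at 15 mg/kg (SD, n = 10 each). The wide spread under levodopa alone came with its replicate 2, whose share of 0.277% was the lowest of the 25. At 15 mg/kg against levodopa alone, the tested genes ran from a log2 fold change of -0.80 for Kcns3 to 0.69 for Kcnk16, with a median of -0.03, against 0.00 over all genes tested. The differences were under 0.25 in size for 50 of the 76 genes and over 0.5 for 10. Fold changes were positive for 48.7% of them, against 50.2% of all genes, and at 7.5 mg/kg for 52.6%, against 51.1%.

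Trapidil at 15 mg/kg was set against levodopa alone with edgeR's quasi-likelihood test on all 25 libraries, with Benjamini-Hochberg adjustment over 14142 genes and a threshold of 0.05. It called 0 of 76 subunit genes, against 1.31% of all genes tested, where 43 rose and 142 fell. At an unadjusted p below 0.05 stood 16 of the 76, or 21.1%, against 19.5% of all genes, so the share was near the background. Of these 16, 7 had positive fold changes (9.21%, against 8.26% of all genes) and 9 negative ones (11.8%, against 11.2%). Other fits called some of them. DESeq2 called 3, or 3.95%, against 4.43% of all genes, with Kcna5 and Kcnn3 higher and Kcng4 lower. Limma-voom with quality weights called 6, or 7.89%, against 5.06%, with Kcna5 and Kcnn3 higher and Kcna2, Kcnc4, Kcne5 and Kcng4 lower. EdgeR on these 2 arms alone called 5 of 75, or 6.67%, against 3.21%, with Kcnn3 higher and Kcna6, Kcnc4, Kcne5 and Kcng4 lower. Without the 2 libraries that stood apart, edgeR called 0, against 0.536% of all genes.

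Trapidil at 7.5 mg/kg against levodopa alone gave 0 calls in 76 by the same test, against 0.0283% of all genes. At an unadjusted p below 0.05 stood 6, or 7.89%, against 11.7% of all genes, and DESeq2 and limma-voom called 0 as well, against 0.382% and 0.721% of all genes. The higher dose against the lower gave 0 calls, against 0.0283%, with 1 gene at an unadjusted p below 0.05, or 1.32%, against 3.63%, and 0 by DESeq2 and limma-voom, against 0.0424% and 0.0919%. Both doses averaged, against levodopa alone, gave 0 calls, against 0.806% of all genes, with 11 at an unadjusted p below 0.05 (14.5%, against 18.1%), 1 by DESeq2 (1.32%, against 3.01%) and 6 by limma-voom (7.89%, against 3.98%). Single libraries moved these backgrounds: without 1 of them edgeR called 19 (levodopa replicate 2) to 624 (7.5 mg/kg replicate 1) of all genes for both doses, against 114 with every library, and 1 (levodopa replicate 3) to 70 (7.5 mg/kg replicate 1) at 7.5 mg/kg, against 4. The comparisons with levodopa alone share its 5 animals, so they are given side by side and not set against each other. In no pairwise comparison did the ranges of 2 arms stand wholly apart for any subunit gene, against 0.0919% of all genes at 7.5 mg/kg, 0.707% at 15 mg/kg and 0% between the doses.

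**Figure D1:**
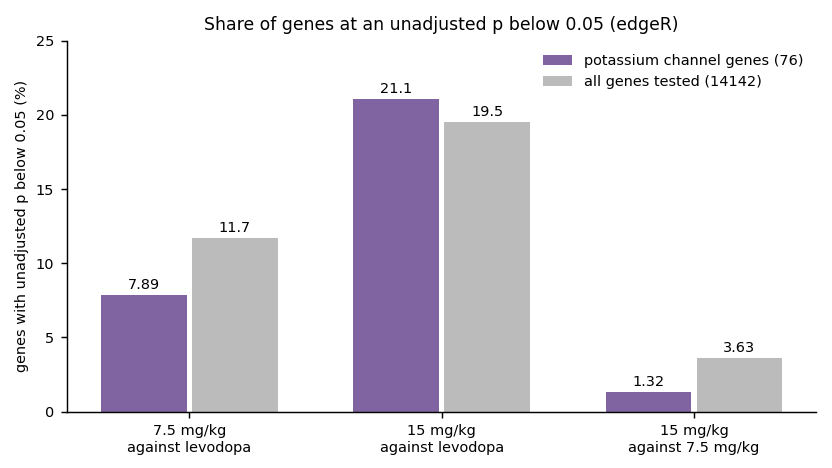
Bars show the share of genes, in percent, at an unadjusted p below 0.05 in each of 3 comparisons, for the 76 potassium channel subunit genes tested and for all 14142 genes tested. At 15 mg/kg against levodopa alone the shares were 21.1% and 19.5%, and in the other 2 comparisons the subunit genes had the lower share.

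The precision behind these values was limited. The median standard error of a subunit gene's log2 fold change at 15 mg/kg was 0.14, against 0.10 over all genes, and 66 of the 76 genes had a 95% confidence interval that lay within 1 log2 unit of 0. Subunit genes varied more between animals of an arm than most genes, with a median biological coefficient of variation of 0.175, against 0.124 for all genes tested. The coefficient lay above that overall median for 56 of the 76, and 13 were in the widest decile of all genes. The steadiest was Kcnh3, an ELK-type voltage-gated subunit, at 0.0765, and the most variable was Kcnk16, a K2P subunit best known from pancreas, at 0.734. Because the counts come without transcript lengths, levels are compared between arms and never between genes.

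**Figure D2:**
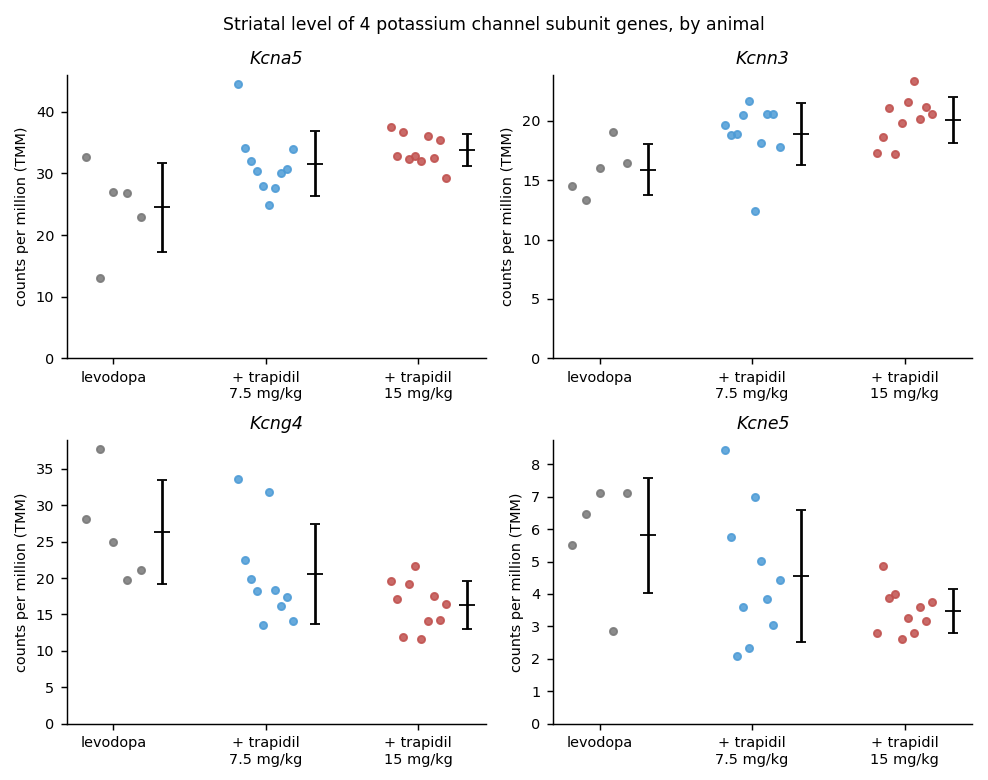
Each point is 1 animal's level in TMM-scaled CPM for Kcng4, Kcna5, Kcnn3 and Kcne5, with arm means and SD. For Kcng4 and Kcne5 all 10 animals at 15 mg/kg lie below the levodopa mean, and for Kcna5 and Kcnn3 all 10 lie above it, while the arms overlap for every gene. These genes were chosen for the smallest p in this same comparison, so such counts, here and in the text, are not separate support.

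Among the silent subunits, Kcng4 had 28.2, 37.7, 24.9, 19.7 and 21.1 CPM in the 5 levodopa animals, 13.6, 18.3 and 33.6 CPM (lowest, median, highest) at 7.5 mg/kg, and 11.7, 16.7 and 21.6 CPM at 15 mg/kg. All 10 animals at 15 mg/kg and 8 of 10 at 7.5 mg/kg lay below the levodopa mean, yet 2 levodopa animals fell within the range of the higher dose. The log2 fold change was -0.69 ± 0.19 (SE) at 15 mg/kg, with a 95% interval of -1.07 to -0.30 and an edgeR adjusted p of 0.0565, and -0.36 ± 0.19 at 7.5 mg/kg, with an adjusted p of 0.452. Between the doses it was -0.33 ± 0.16, with an unadjusted p of 0.0475 and an adjusted p of 0.999. The highest levodopa value, 37.7, belongs to replicate 2, and the highest values at 7.5 mg/kg, 33.6 and 31.8, to replicates 1 and 6, whose oligodendrocyte sums of 15354 and 14641 CPM were the highest of that arm. So were their cortical sums (55.3 and 33.6 CPM), astrocyte sums (3719 and 3395 CPM) and microglial sums (365 and 298 CPM). The part of any of these lists in the Kcng4 values was not tested. Without levodopa replicate 2 and 7.5 mg/kg replicate 1 the difference at 15 mg/kg was -0.52, with an edgeR adjusted p of 0.128.

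The silent subunits as a group gave no common direction: of 9 tested, Kcng4 included, 4 had positive and 5 negative fold changes at 15 mg/kg, with a median of -0.07. Kcnf1, which encodes Kv5.1, had 104, 45.8, 94.2, 78.0 and 73.3 CPM under levodopa alone, 63.8, 86.8 and 103 CPM (lowest, median, highest) at 7.5 mg/kg, and 85.7, 97.2 and 116 CPM at 15 mg/kg. The low levodopa value is again replicate 2, and the ranges overlap. Its log2 fold change was 0.30 ± 0.12 at 15 mg/kg (edgeR adjusted p = 0.171), or 0.16 without the 2 libraries that stood apart, and 0.18 ± 0.10 between the doses (adjusted p = 0.999). Kcns3, for Kv9.3, named because it had the most negative fold change of all 76, was at -0.80 ± 0.34 (edgeR adjusted p = 0.195) and at a low level of 0.175, 0.534 and 1.00 CPM at 15 mg/kg (lowest, median, highest), against 0.826, 1.30, 0.835, 0.844 and 0.903 CPM under levodopa alone. Kcns1, which encodes Kv9.1, was at 0.568 ± 0.408 CPM at 15 mg/kg (SD, n = 10), against 0.883 ± 0.317 CPM under levodopa alone (SD, n = 5), and its 95% interval ran from -1.55 to 0.27.

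The Kv1 subunits, whose channels set spike threshold and delay firing, pointed in different directions. Kcna5 had 32.7, 13.1, 26.9, 26.9 and 22.9 CPM under levodopa alone, 24.9, 30.5 and 44.5 CPM (lowest, median, highest) at 7.5 mg/kg, and 29.2, 32.8 and 37.5 CPM at 15 mg/kg. All 10 animals of either trapidil arm lay above the levodopa mean of 24.5 CPM, though levodopa replicate 1 lay inside both trapidil ranges. The log2 fold change was 0.46 ± 0.13 at 15 mg/kg (95% interval 0.19 to 0.73, edgeR adjusted p = 0.0666) and 0.36 ± 0.13 at 7.5 mg/kg (adjusted p = 0.322). The lowest value, 13.1, is levodopa replicate 2 and the highest, 44.5, is 7.5 mg/kg replicate 1, and without both libraries the difference at 15 mg/kg was 0.31 with an adjusted p of 0.0773.

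Kcna3 encodes Kv1.3, which in the brain is known from microglia as well as neurons. It had 6.94, 6.35, 7.58, 11.8 and 6.43 CPM under levodopa alone, 6.70, 10.4 and 11.9 CPM (lowest, median, highest) at 7.5 mg/kg, and 7.38, 9.87 and 13.4 CPM at 15 mg/kg. The log2 fold change was 0.38 ± 0.15 at 15 mg/kg (edgeR adjusted p = 0.154) and 0.34 ± 0.15 at 7.5 mg/kg (adjusted p = 0.386). Levodopa replicates 3 and 4 lay inside the 15 mg/kg range, and replicates 1, 3 and 4 inside the 7.5 mg/kg range. Without replicate 4, the highest of that arm, the difference was 0.58 at 15 mg/kg and 0.54 at 7.5 mg/kg. The microglial marker sum was 194 to 251 CPM at 15 mg/kg, against 220 to 365 CPM under levodopa alone. Kcna6 encodes the pore-forming Kv1.6 and had 147, 185, 152, 128 and 132 CPM under levodopa alone, 93.3, 126 and 207 CPM at 7.5 mg/kg, and 105, 119 and 133 CPM at 15 mg/kg. Its log2 fold change was -0.32 ± 0.12 at 15 mg/kg (adjusted p = 0.138) and -0.15 ± 0.12 at 7.5 mg/kg (adjusted p = 0.633), with overlapping ranges in both. Kcna2, for the axonal Kv1.2, was at 194 ± 13.5 CPM at 15 mg/kg (SD, n = 10), against 213 ± 32.4 CPM under levodopa alone (SD, n = 5), a log2 fold change of -0.13 ± 0.07. Of the 6 Kv1 genes 4 had positive fold changes with a median of 0.13, but without the 2 libraries that stood apart the median for Kv1 was -0.03.

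The 3 Kv beta genes, for cytoplasmic partners of Kv1, had a median of -0.05. Kcnab1, which encodes a subunit that speeds Kv1 inactivation, was at 502 ± 40.1 CPM at 15 mg/kg (SD, n = 10), against 449 ± 118 CPM under levodopa alone (SD, n = 5). The log2 fold change of 0.16 ± 0.11 was within the spread of the levodopa animals, and it was 0.017 without levodopa replicate 2 and 0.27 without replicate 4.

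The Kv3 family includes the fast delayed rectifiers that let striatal fast-spiking interneurons fire at high rates. All 4 Kv3 genes had negative fold changes at both doses, with medians of -0.38 at 15 mg/kg and -0.11 at 7.5 mg/kg. None of them passed the test. Both doses are set against the same 5 levodopa animals, so the shared direction is not a separate result for each dose. Kcnc4, for Kv3.4, had 10.6, 18.7, 13.4, 10.2 and 15.7 CPM under levodopa alone, 7.02, 8.40 and 27.3 CPM (lowest, median, highest) at 7.5 mg/kg, and 5.22, 9.03 and 11.4 CPM at 15 mg/kg. On the log2 scale it differed by -0.67 ± 0.26 at 15 mg/kg, with an edgeR adjusted p of 0.148, and by -0.54 without the 2 libraries that stood apart. Of its levodopa values, 3 lay above the 15 mg/kg range and 2 inside it. Kcnc2, for Kv3.2, had 8.21, 18.8, 9.84, 6.23 and 9.72 CPM under levodopa alone, 6.15, 7.12 and 26.0 CPM at 7.5 mg/kg, and 5.57, 7.06 and 8.18 CPM at 15 mg/kg.

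Kcnc2 differed by -0.59 ± 0.27 on the log2 scale at 15 mg/kg (edgeR adjusted p = 0.225), or by -0.28 without levodopa replicate 2 and 7.5 mg/kg replicate 1, and by -0.47 ± 0.23 between the doses (adjusted p = 0.999). Among the highest animals for both Kv3.2 and Kv3.4 were levodopa replicate 2 and replicates 1 and 6 of the 7.5 mg/kg arm, where Kcnc2 stood at 26.0 and 15.3 CPM. The cortical marker sum was 6.91 CPM in the first of these animals and 55.3 and 33.6 CPM in the other 2, with 2.80 to 5.16 CPM over the 15 mg/kg arm. These animals also had the highest oligodendrocyte, astrocyte and microglial sums of their arms. The part of any of these lists in the Kv3.2 and Kv3.4 values was not tested. Without levodopa replicate 2 and 7.5 mg/kg replicate 1 the Kv3 median at 15 mg/kg was -0.24, still with 0 of 4 positive. The Kv3 signs at 7.5 mg/kg without levodopa replicate 2 alone are not given here. The interneuron marker sum was 289 to 359 CPM at 15 mg/kg, against 312 to 358 CPM under levodopa alone. Of its 6 tested markers 5 were negative at 15 mg/kg and 1 positive, with 0 called. In edgeR 1 of them was lower at an unadjusted p below 0.05, against 11.2% of all genes. Within that list Pvalb was at 3.75 to 9.23 CPM at 15 mg/kg, against 8.59 to 16.8 CPM under levodopa alone. The part of these markers in the Kv3 values was not tested.

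The A-type subunits and their calcium-binding partners had family medians of 0.06 for Kv4 and 0.08 for KChIP at 15 mg/kg, with no call. Kcnd3, for Kv4.3, was at 35.0 ± 2.10 CPM at 15 mg/kg (SD, n = 10), against 34.8 ± 5.37 CPM under levodopa alone (SD, n = 5), with a log2 fold change of 0.01 and a 95% interval of -0.17 to 0.19. Kcnd1, for Kv4.1, differed between the doses by 0.12 ± 0.07 on the log2 scale, with 30.4 ± 3.06 CPM at the higher, against 28.0 ± 2.60 CPM at the lower (SD, n = 10 each). Kcnd2, the other Kv4 gene, was not analysed here. Kcnip3, for the Kv4 partner KChIP3, also known as the calcium-binding repressor DREAM, was at 44.7 ± 4.77 CPM at 15 mg/kg (SD, n = 10), against 47.3 ± 6.08 CPM under levodopa alone (SD, n = 5). Kcnip2, for KChIP2, was low, at 1.46 ± 0.411 CPM at 15 mg/kg, against 1.43 ± 0.218 CPM under levodopa alone, with an interval of -0.46 to 0.51.

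All 3 Kcne genes tested, for single-span auxiliary subunits, had negative fold changes at both doses, with medians of -0.47 at 15 mg/kg and -0.36 at 7.5 mg/kg. Kcne5 had 5.51, 6.48, 7.10, 2.85 and 7.12 CPM under levodopa alone, 2.07, 4.14 and 8.44 CPM (lowest, median, highest) at 7.5 mg/kg, and 2.60, 3.42 and 4.87 CPM at 15 mg/kg. Of the 5 levodopa animals, 4 lay above every animal at 15 mg/kg, and the exception, replicate 4, lay near the bottom of that arm. The log2 fold change was -0.74 ± 0.25 at 15 mg/kg (95% interval -1.25 to -0.24, edgeR adjusted p = 0.0965) and -0.36 ± 0.25 at 7.5 mg/kg (adjusted p = 0.574). Without the 2 libraries that stood apart the value at 15 mg/kg was -0.70, with an adjusted p of 0.156. Kcne4, for a subunit that inhibits Kv1 channels, was at 0.337 ± 0.281 CPM at 15 mg/kg (SD, n = 10), against 0.449 ± 0.260 CPM under levodopa alone (SD, n = 5), too low to place its difference more closely than -1.59 to 0.65.

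**Figure D3:**
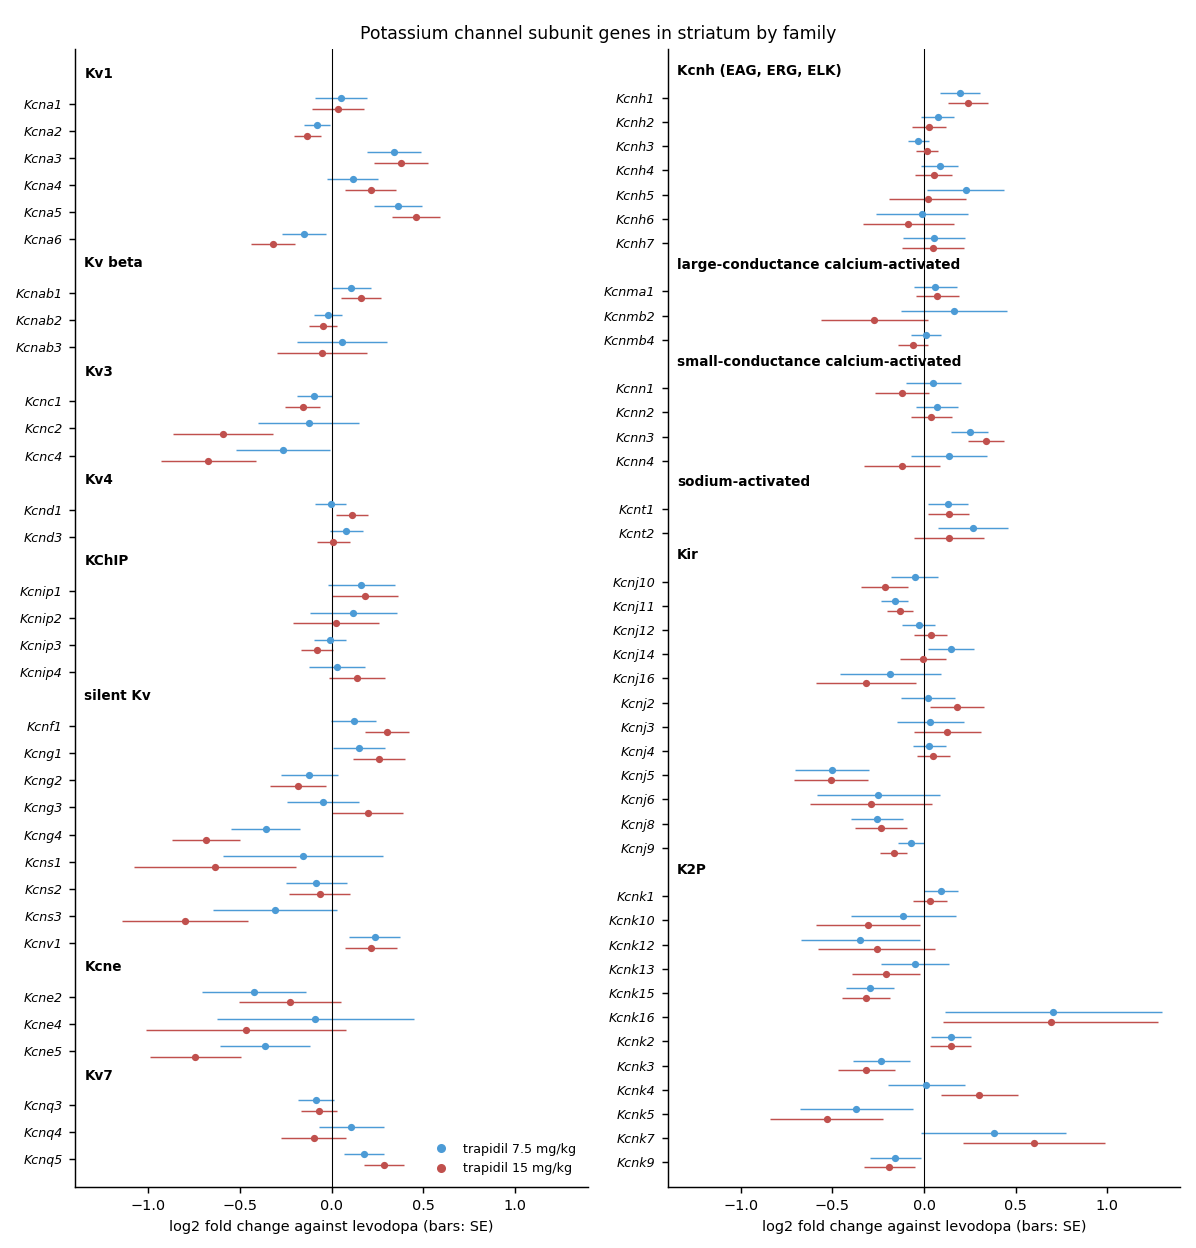
Points show the log2 fold change of 73 of the 76 tested genes against levodopa alone at 7.5 and 15 mg/kg, with SE bars, grouped by subunit family. The Kv3 and Kcne genes drawn all lie left of 0 at both doses, while most other families straddle it, and fold changes at 15 mg/kg run from -0.80 to 0.69.

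Kv7 subunits carry the M-current, a slow brake on firing, and Kcnh subunits form the EAG, ERG and ELK channels. Kcnq5, for Kv7.5, had 214, 128, 217, 265 and 230 CPM under levodopa alone, 195, 243 and 268 CPM (lowest, median, highest) at 7.5 mg/kg, and 205, 265 and 293 CPM at 15 mg/kg. Only replicate 2 of the levodopa arm lay outside the trapidil ranges. The log2 fold change was 0.29 ± 0.11 at 15 mg/kg (edgeR adjusted p = 0.147), or 0.15 without the 2 libraries that stood apart, and 0.18 ± 0.11 at 7.5 mg/kg (adjusted p = 0.526). Kcnq3, for Kv7.3, was at 55.7 ± 4.31 CPM at 15 mg/kg (SD, n = 10), against 58.3 ± 11.6 CPM under levodopa alone (SD, n = 5), a log2 fold change of -0.07 ± 0.10. Of the 7 Kcnh genes tested, 6 had positive fold changes at 15 mg/kg, with a median of 0.03 that was -0.03 without the 2 libraries that stood apart.

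Kcnh3 was the steadiest of all 76 genes between animals, and its arms differed by less than 1 SD. It was at 163 ± 11.5 CPM at 15 mg/kg (SD, n = 10), against 162 ± 9.28 CPM under levodopa alone (SD, n = 5), and its 95% interval ran from -0.10 to 0.13. Kcnh7, for the ERG3 channel, was at 4.57 ± 0.691 CPM at 15 mg/kg, against 4.40 ± 1.19 CPM under levodopa alone, with an interval of -0.30 to 0.40.

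Among calcium-activated channels, Kcnn3 had 14.5, 13.3, 16.0, 19.1 and 16.4 CPM under levodopa alone, 12.4, 19.3 and 21.7 CPM (lowest, median, highest) at 7.5 mg/kg, and 17.2, 20.3 and 23.4 CPM at 15 mg/kg. All 10 animals at 15 mg/kg and 9 of 10 at 7.5 mg/kg lay above the levodopa mean of 15.9 CPM, and levodopa replicate 4 lay within the 15 mg/kg range. On the log2 scale the difference was 0.34 ± 0.10 at 15 mg/kg (95% interval 0.13 to 0.54, edgeR adjusted p = 0.0691) and 0.25 ± 0.10 at 7.5 mg/kg (adjusted p = 0.355). Without the 2 libraries that stood apart it was 0.28 at 15 mg/kg, with an adjusted p of 0.176. Kcnn1, for SK1, was at 19.2 ± 2.87 CPM at 15 mg/kg (SD, n = 10), against 20.9 ± 5.93 CPM under levodopa alone (SD, n = 5), a log2 fold change of -0.12 ± 0.15. Kcnma1, the pore-forming subunit of the large-conductance BK channel, was at 55.9 ± 5.80 CPM at 15 mg/kg, against 53.1 ± 12.5 CPM under levodopa alone, with an interval of -0.17 to 0.31. Kcnt1, for the sodium-activated channel Slack, was at 216 ± 17.3 CPM at 15 mg/kg, against 196 ± 44.1 CPM under levodopa alone, with a log2 fold change of 0.13 ± 0.11 that was 0.03 without levodopa replicate 2 and 0.26 without replicate 5.

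Of the 12 Kir genes tested, 8 had negative fold changes at 15 mg/kg and 8 at 7.5 mg/kg, with medians of -0.15 at 15 mg/kg and -0.06 at 7.5 mg/kg. Kcnj5, for the G protein-gated subunit Kir3.4, had 4.96, 7.65, 4.30, 2.90 and 2.97 CPM under levodopa alone, 2.00, 3.13 and 4.62 CPM (lowest, median, highest) at 7.5 mg/kg, and 2.34, 2.91 and 4.04 CPM at 15 mg/kg. In all, 3 levodopa animals lay above the 15 mg/kg range and the other 2 inside it, with replicate 2 the highest of all. Its log2 fold change was -0.51 ± 0.20 at 15 mg/kg (edgeR adjusted p = 0.163), or -0.24 without the 2 libraries that stood apart, and -0.50 ± 0.20 at 7.5 mg/kg (adjusted p = 0.358), or -0.27 without those libraries. Kcnj11, the pore of the ATP-sensitive channel that couples metabolism to excitability, had 55.1, 45.0, 51.7, 54.3 and 60.2 CPM under levodopa alone, 39.4, 47.9 and 54.8 CPM at 7.5 mg/kg, and 41.9, 48.0 and 57.0 CPM at 15 mg/kg. The arms overlapped, and its log2 fold change was -0.13 ± 0.07 at 15 mg/kg (adjusted p = 0.326) and -0.16 ± 0.07 at 7.5 mg/kg (adjusted p = 0.404).

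The strong rectifiers that hold spiny projection neurons at rest, Kcnj4 (Kir2.3) and Kcnj2 (Kir2.1), had intervals that took in 0. Kcnj4 was at 233 ± 9.64 CPM at 15 mg/kg (SD, n = 10), against 225 ± 47.8 CPM under levodopa alone (SD, n = 5), with a 95% interval of -0.14 to 0.23. Kcnj2 was at 21.2 ± 3.35 CPM at 15 mg/kg, against 18.7 ± 4.51 CPM under levodopa alone, with an interval of -0.13 to 0.48. Kcnj6, for the G protein-gated Kir3.2, was near the floor of the data at 0.719 ± 0.394 CPM at 15 mg/kg, against 0.886 ± 0.156 CPM under levodopa alone.

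A further 3 Kir genes are usually tied to other cells of the brain. Kcnj10, the Kir4.1 subunit through which astrocytes and oligodendrocytes take up potassium, was at 32.5 ± 5.22 CPM at 15 mg/kg (SD, n = 10), against 37.8 ± 9.47 CPM under levodopa alone (SD, n = 5), a log2 fold change of -0.21 ± 0.13. Kcnj16, its Kir5.1 partner, was at 2.62 ± 0.666 CPM at 15 mg/kg, against 3.27 ± 1.92 CPM under levodopa alone. Kcnj8, the Kir6.1 subunit of pericytes and vascular muscle, was at 8.42 ± 1.62 CPM at 15 mg/kg, against 9.93 ± 2.10 CPM under levodopa alone, a log2 fold change of -0.24 ± 0.14. Astrocyte marker sums were 2010 to 3423 CPM at 15 mg/kg, against 2539 to 5323 CPM under levodopa alone, with all 6 markers negative. Pericyte and smooth muscle sums were 100.1 to 141 CPM at 15 mg/kg, against 92.1 to 199 CPM under levodopa alone, with all 6 markers negative, and the part of either in these 3 genes was not tested. The highest levodopa sum of both lists, 5323 and 199 CPM, is that of replicate 2, without which the fold change was -0.12 for Kcnj10, -0.15 for Kcnj8 and 0.04 for Kcnj16.

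Of the 12 K2P genes tested, 7 had negative fold changes at 15 mg/kg and 7 at 7.5 mg/kg, with a median of -0.20 at 15 mg/kg. Kcnk2, the mechanically gated leak channel TREK-1, was at 241 ± 22.6 CPM at 15 mg/kg (SD, n = 10), against 218 ± 51.2 CPM under levodopa alone (SD, n = 5). The levodopa animals spanned 126 to 244 CPM, and the log2 fold change of 0.15 ± 0.11 was inside that spread. Without levodopa replicate 2, the lowest of them, it was 0.0037. Kcnk15, for the acid-sensitive relative TASK-5, had 3.58, 4.94, 4.24, 3.27 and 3.67 CPM under levodopa alone, 2.48, 3.22 and 3.62 CPM (lowest, median, highest) at 7.5 mg/kg, and 2.43, 3.11 and 4.18 CPM at 15 mg/kg. Its log2 fold change was -0.32 ± 0.13 at 15 mg/kg (edgeR adjusted p = 0.177) and -0.29 ± 0.13 at 7.5 mg/kg (adjusted p = 0.393), with overlapping ranges. Kcnk4, the related TRAAK channel, differed between the doses by 0.29 ± 0.17 on the log2 scale, with 4.08 ± 1.22 CPM at the higher, against 3.34 ± 0.649 CPM at the lower (SD, n = 10 each). Kcnk16 ran from 0 to 3.37 CPM over the 25 animals, so its fold change of 0.69 ± 0.59 is the least certain of all.

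**Figure D4:**
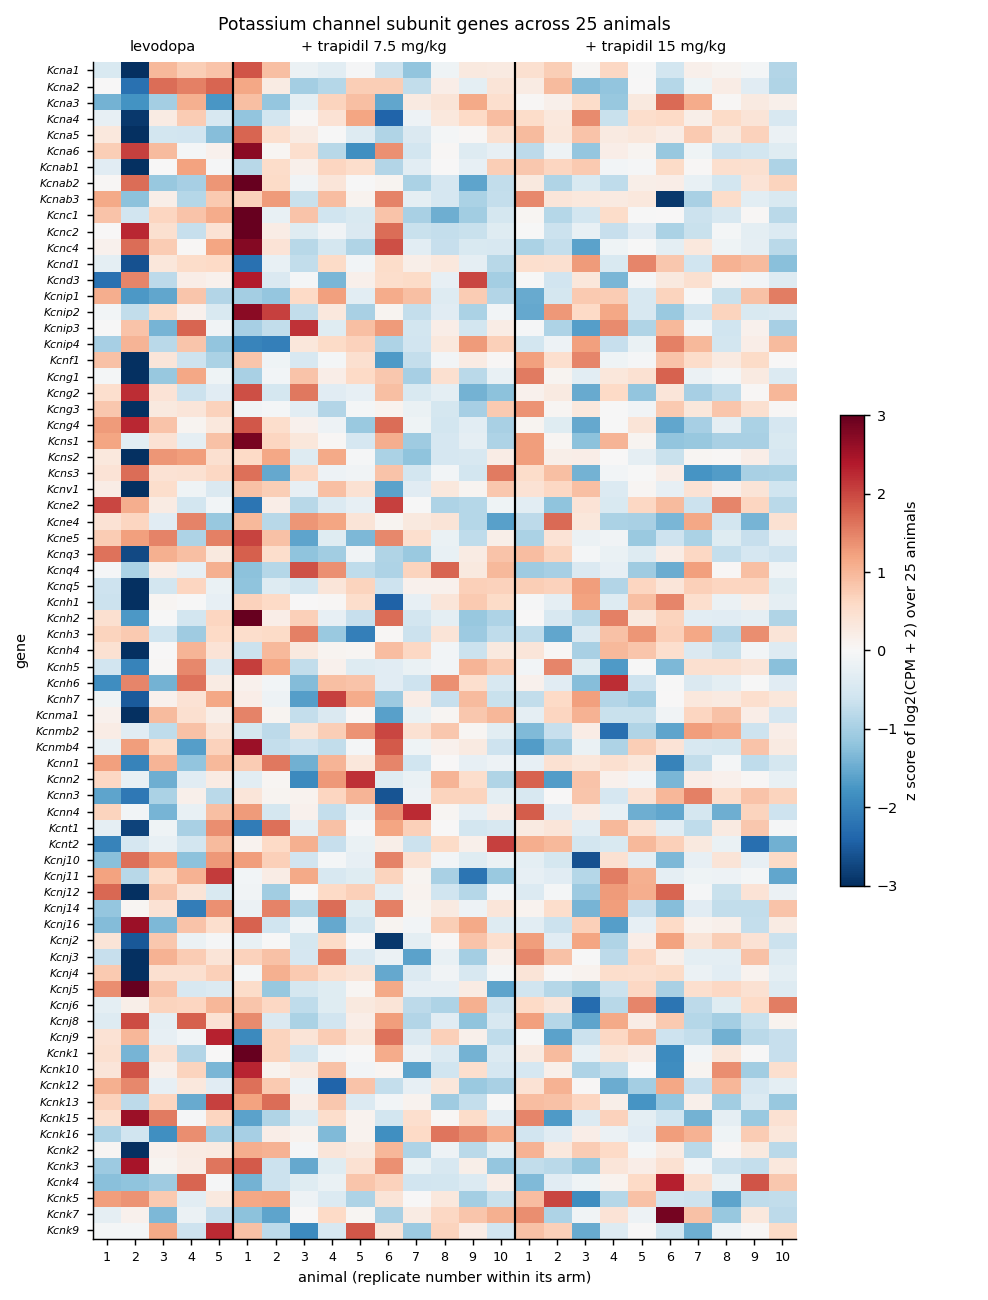
Colours show, for 73 of the 76 tested genes, the z score of log2(CPM + 2) over the 25 animals, limited to 3 units either side of 0, with animals as columns by arm and genes as rows. Levodopa replicate 2 holds the lowest value for 28 genes and replicate 1 of the 7.5 mg/kg arm the highest for 21.

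A pair of animals held many of the extremes of these genes. Levodopa replicate 2 had the lowest of the 25 values for 28 of the 76 genes, or 36.8%, against 19.3% of all genes tested, and the highest for 9, or 11.8%, against 19.7%. Its lowest values include Kcnq5, Kcnj4, Kcnk2 and Kcnma1. The 9 for which it was highest are the glial and vascular Kcnj10, Kcnj16 and Kcnj8, and also Kcng2, Kcng4, Kcnj5, Kcnk3, Kcnk15 and Kcns3. Replicate 1 of the 7.5 mg/kg arm had the highest value for 21 genes, or 27.6%, against 15.3% of all genes, among them Kcnc2, Kcnc4, Kcna6 and Kcne5. These are the same libraries whose spiny neuron, oligodendrocyte and cortical marker sums stood apart above. Without levodopa replicate 2 the log2 fold change at 15 mg/kg moved by over 1.5 times or changed sign for 23 of the 42 genes named in that comparison, and at 7.5 mg/kg for 5 of 10. The 42 include Cntn2, Scn3b, Cacnb1 and Hcn4, which are not subunit genes, and the 23 include Scn3b. Where a fold change was near 0, as for Kcnd3 at 0.01, a small shift was enough.

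Some of these genes sit next to each other on a chromosome. By RefSeq gene order (GRCr8) 7 pairs of the subunit genes are neighbours, and in 6 both were tested. At 15 mg/kg 2 of these pairs had fold changes of the same sign. Kcna5 and Kcna6, which flank Kcna1, were at 0.46 and -0.32. Kcnj9 and Kcnj10 were at -0.17 and -0.21, and Kcnj16 and Kcnj2 at -0.32 and 0.18. Kcna3 and Kcna2 were at 0.38 and -0.13.

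The other 35 tested subunit genes ran from -0.53 to 0.60 on the log2 scale at 15 mg/kg against levodopa alone, with 17 positive and 18 negative, and from -0.43 to 0.38 at 7.5 mg/kg, with 21 positive and 14 negative. Of these 35, 1 had an unadjusted p below 0.05 at 15 mg/kg and 0 at 7.5 mg/kg, and the lowest edgeR adjusted p was 0.213. The shares over all genes were 19.5% and 11.7%, but the naming rule had already taken the genes with the smallest p. At 7.5 mg/kg it had taken all 6 such genes, so the 0 there was fixed by the rule. The 3 untested genes were seen too rarely for a comparison. Kcnh8, for an ELK channel, had 0 to 10 counts per library, Kcnrg, for a regulator of Kv assembly, 0 to 12, and Kcnj15, for Kir4.2, 1 to 11.

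Other genes of neuronal excitability were counted beside these by the same test. Of 23 tested partner proteins of potassium channels 0 were called at 15 mg/kg, against 1.31% of all genes, and 4 stood at an unadjusted p below 0.05, against 19.5% of all genes, with 15 positive and a median of 0.04, against 0.00 over all genes. The nearest to the threshold, named for that, was Cntn2, an adhesion protein that holds Kv1 channels beside nodes of Ranvier, at -0.41 ± 0.11 (edgeR adjusted p = 0.0567). All 4 HCN genes, for the pacemaker cation channels that share the potassium channel fold, were negative at 15 mg/kg with a median of -0.13, and 0 were called, also at an unadjusted p below 0.05. Hcn4 was the nearest of them, at -0.27 ± 0.16 (edgeR adjusted p = 0.37). Of 11 sodium channel genes 0 were called, with 2 at an unadjusted p below 0.05, 7 positive and a median of 0.05. Of 21 calcium channel genes 0 were called, with 4 at an unadjusted p below 0.05, 11 positive and a median of 0.04. Both counts stand against the same 1.31% called and 19.5% at an unadjusted p below 0.05 over all genes. The nearest of these were Scn3b at 0.26 ± 0.09 (adjusted p = 0.11), or 0.14 without levodopa replicate 2, and Cacnb1 at 0.22 ± 0.06 (adjusted p = 0.0596), both auxiliary beta subunits. DESeq2 and limma-voom called both Cntn2 and Cacnb1. None of the 4 lists had a call at 7.5 mg/kg or between the doses.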

How the data were processed

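PolyA RNA of striatum, 1 library per animal, was extracted with the RNeasy Mini Kit, per the labels' protocols. The deposited table holds whole-number counts per gene that the authors made, and the submitters' processing notes name FastQC, STAR, HTSeq and the build Rnor_6.0; versions, annotation and strand setting are not given in the sources used here, so antisense and overlapping genes cannot be told apart. From these counts edgeR 4.0.16 (R 4.3.3) fitted the 3 arms to all 25 libraries with TMM scaling after filterByExpr, which kept 14142 genes. Tests were two-sided, and p-values were adjusted over all these genes. CPM and log2 values are computed here. Scripts were tested on simulated data. Alternatives were DESeq2 1.42.0, limma 3.58.1 (voom with quality weights), 2 other scalings, 2 other filters, 2 arms alone, a replicate block, a threshold of 0.10, and fits without single libraries or without the 2 that stood apart. Named in full were the 3 genes per direction with the smallest p in each pairwise comparison, the most abundant gene per family, a set of well-known subunits, the 3 steadiest and 3 most variable, and, of each other list, the gene with the smallest p. The genes and lists were chosen with earlier results of these data known. Replicates are separate rats, by the group sizes of the design text. A few genes that enter the counts are not reported by name here.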

Additional observations from a re-analysis of the deposited data

Results flagged for a closer look

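In each arm, a gene's highest or lowest animal was singled out where its gap to the nearest other animal of the arm was large against the arm's whole range (Dixon's 95% critical value). This picked 11 of the 117 groups examined, where chance picks about 1 in 20 if values are normally distributed. The genes examined were the named ones, among them the 3 most variable, so the count is not read against that rate. Values are CPM. Levodopa replicate 2 accounts for 4 of them. It was lowest for Kcnj4 at 140 (next 242), Kcnk2 at 126 (next 236) and Kcnma1 at 31.4 (next 55.7), and highest for Kcnc2 at 18.8 (next 9.84). Levodopa replicate 4 was highest for Kcna3 at 11.8 (next 7.58) and Kcnk16 at 3.06 (next 0.864). Within the 7.5 mg/kg arm, replicate 1 was highest for Kcna5 at 44.5 (next 34.1), Kcnc2 at 26.0 (next 15.3) and Kcns1 at 2.29 (next 1.21). Replicate 6 of that arm was lowest for Kcnj2 at 10.3 (next 17.4) and Kcnn3 at 12.4 (next 17.8). No animal of the 15 mg/kg arm was singled out.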

How the results depend on the processing

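The count of 0 called subunit genes at 15 mg/kg against levodopa alone held under both other scalings, both other filters, the replicate block and the fit without levodopa replicate 2 and 7.5 mg/kg replicate 1. It was 3 with DESeq2, 6 with limma-voom, 5 with the 2 arms alone and 4 (5.26%, against 6.10% of all genes) at a threshold of 0.10, and it ran from 0 to 6 over 25 fits without 1 library. The 6 (7.89%, against 6.29% of all genes) came without levodopa replicate 4. It was 4 (5.26%, against 4.52%) without 7.5 mg/kg replicate 1 and 1 (1.32%, against 0.894%) without levodopa replicate 1. It was 2 (2.63%) without 7.5 mg/kg replicate 6 (against 2.40%) or 15 mg/kg replicate 4 (against 3.09%). The count did not always move with the share over all genes. That share was 1.31% with every library and 1.41% without levodopa replicate 5, with a count of 0 in both fits. For both doses against levodopa alone the count was 1 with DESeq2, 6 with limma-voom, 2 at 0.10 (2.63%, against 3.49%) and 0 to 2 without 1 library. At 7.5 mg/kg and between the doses it was 0 in every fit run. Calls over all genes at 15 mg/kg were 185, against 627 with DESeq2, 715 with limma-voom, 448 with the 2 arms alone, 76 without both libraries, 0 with the block and 9 to 894 without 1 library. Replicate numbers were not taken to pair the animals: correlations over 20 same-numbered pairs ran from -0.42 to 0.21, with 8 over 0.1, and 2 of 25 libraries correlated best with their own number. The fit with the replicate block called 0 subunit genes, as did the fit without it. Kcng4 ran from -0.77 to -0.52 without 1 library (edgeR adjusted p 0.0242 to 0.249), Kcna5 from 0.31 to 0.59 (0.0325 to 0.216), Kcnn3 from 0.28 to 0.41 (0.025 to 0.245) and Kcne5 from -0.92 to -0.66 (0.0287 to 0.274). Of 575 comparisons of reported fold changes with the other settings, 539 kept direction and side of the threshold, 25 newly passed the threshold of their setting and 11 changed sign. These settings include the threshold of 0.10, which uses the same fit. There no direction could change, and a gene passed only because the threshold was looser. At 15 mg/kg limma-voom gave Kcnh7 -0.079, Kcnip2 -0.11, Kcnj16 0.11, Kcnj4 -0.052 and Kcnma1 -0.045, the block gave Kcnd3 -0.019, and without both libraries Kcnh7 was -0.098, Kcnip2 -0.034, Kcnj16 0.042, Kcnj4 -0.079 and Kcnma1 -0.066. Without 1 library Kcnd3 ran from -0.066 to 0.085, Kcnh3 from -0.011 to 0.036, Kcnh7 from -0.097 to 0.16, Kcnip2 from -0.037 to 0.10, Kcnj16 from -0.49 to 0.043, Kcnj4 from -0.079 to 0.092 and Kcnma1 from -0.066 to 0.14. At 15 mg/kg, leaving out some 1 library moved the fold change of 31 of the 42 named genes by over 1.5 times or turned its sign. The 42 include Cntn2, Scn3b, Cacnb1 and Hcn4, and for fold changes near 0 a small shift was enough. The cause of these moves was not tested. Depth limits the genes near 1 CPM, such as Kcne4, Kcnk16 and Kcns3.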
